A study of Mus musculus with 4 samples.

Results

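The monoamine, muscarinic and histamine receptors are the proteins through which noradrenaline, dopamine, serotonin, acetylcholine and histamine act on cells. Their probes were taken by name, as those whose gene name on the array is Htr, Adra, Adrb, Drd, Chrm or Hrh followed directly by a digit. This gave 49 probes for 37 genes among the 39429 probes of the array. They comprised 9 adrenergic, 5 dopamine, 14 serotonin, 5 muscarinic and 4 histamine receptor genes. RNA came from lumbar spinal slices of male ICR mice, an outbred stock, which were a few weeks old when housed. All mice had a partial ligation of the right sciatic nerve (PSL) 7 days earlier. They were either sham operated (sham-PSL) or adrenalectomized (ADX-PSL, with saline to drink), and the cord was taken at ZT10, when corticosterone is high in sham-PSL mice, or at ZT22, when it has declined. ZT is the time in hours after lights on. There was no group without nerve injury, so that every value refers to the injured state. The number of mice behind each RNA and the side of the cord were not given in the sources used here. Each of the 4 conditions was measured on 1 array, so no difference between conditions has a replicate check, and variation from mouse to mouse or slice to slice is part of any difference between a pair of arrays.

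Noradrenaline and most of the serotonin and dopamine of the spinal cord are released by fibres that descend from the brainstem and hypothalamus, whereas motor neurons and some interneurons of the cord make acetylcholine. Adrenergic receptors of the alpha-2 type lower transmitter release from pain fibres and quiet dorsal horn neurons, and serotonin acts in both directions, depending on the receptor. Nearly all of these receptors couple to G proteins. Those that act through Gi lower cyclic AMP, those that act through Gs raise it and those that act through Gq release calcium from stores. The Htr3 subunits, which form a cation channel, are the exception.

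The probes of 60 bases whose readings the results turn on are shown here, with the position of the printed bases on mm9, the build of the files. All of them read as open frames of the receptor named, and no annotation of that build was used to place them in exons. The Htr3a probe (chr9:48707797-48707832, minus strand) covers the end of the coding sequence, with the stop codon in capitals, and its remaining bases are not printed. The Chrm5 probe (chr2:112319331-112319390, minus strand) lies at the very end of the coding sequence. In the probes of Drd4 (chr7:148480683-148480742, plus strand) and Htr6 (chr4:138617683-138617742, minus strand) the capitals mark the codons of the NPxxY motif, a turn in the last transmembrane helix that moves when such receptors are activated. In the dim probe of Adrb1 (chr19:56797242-56797301, plus strand) and a dim probe of Htr2c (chrX:143604149-143604208, plus strand) they mark the codon of the aspartate in the third helix that holds the amine. The dim Adrb3 probe (chr8:28337864-28337923, minus strand) and the Htr1b probe (chr9:81525015-81525074, minus strand) are given for the results below that turn on them.
Htr3a: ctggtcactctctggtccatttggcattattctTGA
Chrm5: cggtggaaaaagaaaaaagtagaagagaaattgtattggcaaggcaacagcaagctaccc
Drd4: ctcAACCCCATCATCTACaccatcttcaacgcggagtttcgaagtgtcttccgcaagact
Htr6: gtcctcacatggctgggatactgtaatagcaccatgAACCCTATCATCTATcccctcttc
Adrb1: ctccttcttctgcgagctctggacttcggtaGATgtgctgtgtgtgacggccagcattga
Htr2c: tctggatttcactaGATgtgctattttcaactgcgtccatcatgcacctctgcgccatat
Adrb3: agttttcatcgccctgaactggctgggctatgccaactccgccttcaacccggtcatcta
Htr1b: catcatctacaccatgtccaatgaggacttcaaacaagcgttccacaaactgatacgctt

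Levels are the authors' intensities on the linear scale, in arbitrary units, quantile-normalized over the 4 arrays so that each array had a median of 105.5. A level counts as measured where the image analysis flagged the spot as well above background, which held for 65.1% to 70.1% of all probes per array. The lowest such level was 14.9 (ZT10) and 18.4 (ZT22) on the sham-PSL arrays, and 12.8 (ZT10) and 22.2 (ZT22) on the ADX-PSL arrays. Below, values on the 4 arrays are given in this order, sham-PSL first and ZT10 before ZT22. Markers of neurons (10 of 10 genes), motor neurons (6 of 6), astrocytes (8 of 8), oligodendrocytes (7 of 7) and microglia (8 of 8) were measured on all arrays. The arrays also differed in markers of blood, skeletal muscle and meningeal fibroblasts. More of such tissue and more message per cell cannot be told apart here. The summed level of 6 blood markers was 18770 in sham-PSL at ZT22 and between 89810 and 135900 on the other arrays. The sum of 8 skeletal muscle markers was 2146 in sham-PSL at ZT10 and between 150.1 and 173.4 elsewhere. The sum of 9 markers of meningeal fibroblasts was 16330 and 14930 in sham-PSL against 4974 and 5472 in ADX-PSL. Their part in the results below was not tested, except where a value is given beside a result.

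Of the 49 receptor probes, 32 (65.3%) were measured on all 4 arrays, as were 63.4% of all probes. By the brightest probe, 27 of the 37 genes were measured on all arrays, among them all 9 adrenergic genes, 9 of the 14 serotonin genes, and 3 genes each of the dopamine, muscarinic and histamine groups. The probes of Htr2b, Htr3b and Hrh2 and the dimmer probe of Htr4 were above background on no array. The array with the fewest readings was ADX-PSL at ZT22, with 34 probes, and that with the most was ADX-PSL at ZT10, with 42.

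**Figure D1:**
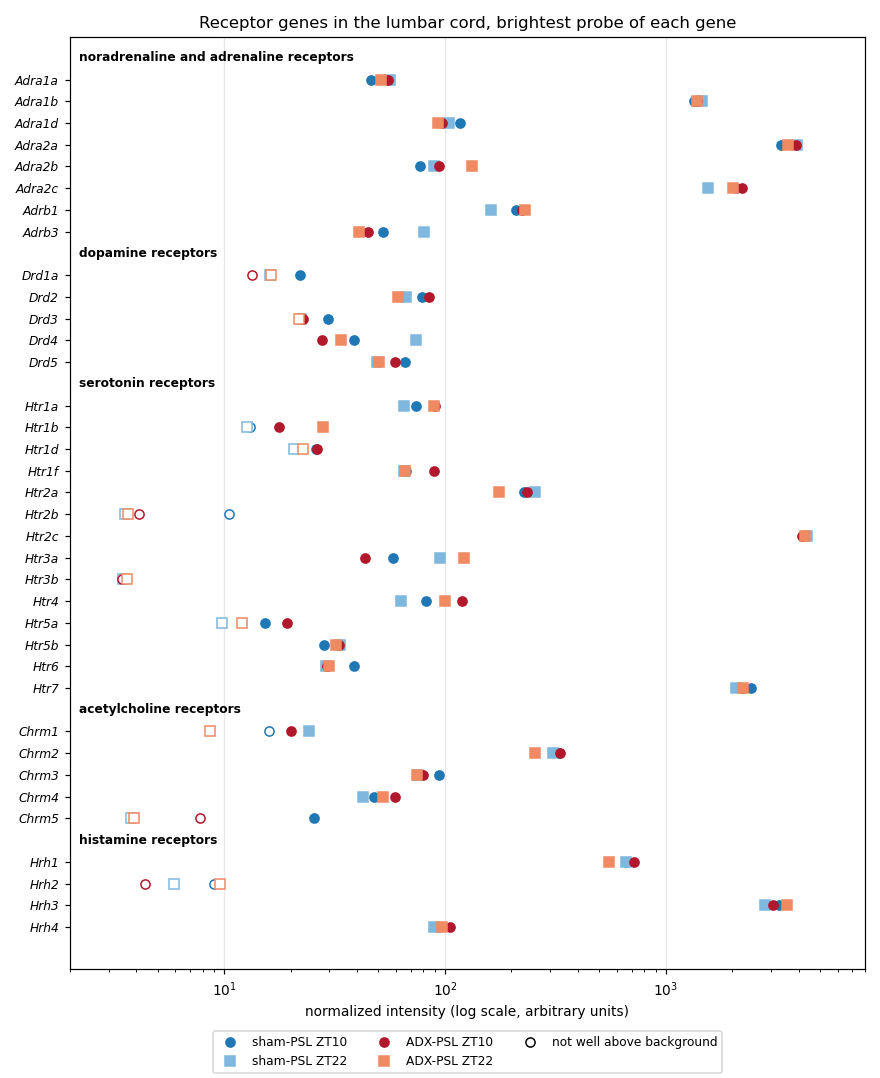
Normalized intensity (log scale, arbitrary units) of the brightest probe of each receptor gene named in the text, by transmitter. Circles are ZT10 and squares ZT22, blue sham-PSL and red or orange ADX-PSL, each 1 array, and open symbols were not well above background. The 4 symbols of most genes lie close together, while those of Drd4, Htr3a and Adrb3 are spread. Intensities of different probes do not compare the abundance of different genes.

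Most receptor probes measured on all arrays differed little between the conditions, as did most probes of the array. The highest level was less than 1.5 times the lowest for 27 of the 32 receptor probes (84.4%), as it was for 83.8% of all 25009 probes measured on all arrays. The median of highest over lowest was 1.34 for the receptor probes and 1.23 for all probes. The 5 probes with a wider range were those of Adra2b, Adrb3, Drd4, Htr3a and Htr4. A difference was counted where the log2 ratio lay 2 SD or more from the mean over all probes (a Z-score of 2) and the ratio was 2 or more, or 0.5 or less, with the brighter array well above background. Where the dimmer array was at background, the ratio that had to pass was the lower bound of the fold, formed with the lowest measurable level of that array in place of a dimmer reading. For probes measured on both arrays the limits came to ratios between 2.18 and 2.32. Over the 4 comparisons they were passed by 2 genes, Htr3a and 1 of the probes of Adrb1. With the measured ratio in place of the bound, Chrm5 and Chrm1, whose dim readings were at background, passed as well in some comparisons, as given with these genes below.

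Htr3a, the subunit that serotonin-gated channels cannot do without, was lower at ZT10 than at ZT22 under both operations. Sham-PSL mice had a level of 58.5 at ZT10 and 95.4 at ZT22, and ADX-PSL mice had 43.7 at ZT10 and 123 at ZT22. Both readings at ZT22 were thus above both at ZT10, and the difference was wider in the ADX-PSL pair. The log2 ratio of ZT10 over ZT22 was -1.49 in ADX-PSL, past the limits (Z = -2.65, ratio 0.357), and -0.71 in sham-PSL, short of them (Z = -1.18, ratio 0.613). The error of these ratios from the spots alone was 0.23 in both pairs, which leaves out the spread between mice. In tissue RNA, fewer cells of a type and less message per cell cannot be told apart. With normexp background correction and an offset of 50, the log2 ratios were -0.88 in ADX-PSL and -0.45 in sham-PSL, and neither passed. An offset of this size shrinks the ratios of spots as dim as these, so that this setting does not test the result. The partner subunit Htr3b was at background on every array, with levels of 3.44 to 3.65. Sensory neurons of the dorsal root ganglion are another source of Htr3a, and of 7 of their markers 4 were above background on no array, Scn10a and Avil among them. Trpv1 was measured only in sham-PSL at ZT10, at 27.0, and was there at least 2.10-fold higher than in ADX-PSL, past the limits. Isl2 was measured on all arrays, at 283 to 301. Prph, which motor neurons share, was 9259 and 9886 in sham-PSL mice and 6393 and 7327 in ADX-PSL mice.

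The beta receptor Adrb1, which raises cyclic AMP, was read differently by its probes. The probe that starts at base 380 of the transcript, over the third helix, gave 14.96 (ZT10) and 16.2 (ZT22) on the sham-PSL arrays, and 21.7 (ZT10) and 88.4 (ZT22) on the ADX-PSL arrays. Both sham-PSL readings were at background, and 1 array stood out. Its log2 ratio of ZT10 over ZT22 in ADX-PSL was -2.03 (Z = -3.61, spot error 0.28), and at ZT22 it was at least 4.80-fold higher in ADX-PSL than in sham-PSL. The probe at base 2353 gave 210, 161, 223 and 231 in the same order of arrays. Its log2 ratio over time in ADX-PSL was -0.05, and that of ADX-PSL over sham-PSL at ZT22 was 0.52. The probes differed by 1.98 on the log2 scale in the former, the widest gap between probes of 1 gene here, so the result of the dim probe is not one for Adrb1 as a gene. It was also lost with normexp correction, whose offset of 50 shrinks the ratios of such dim readings, so that the loss does not test the result.

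In sham-PSL, 0 of the 42 receptor probes tested passed the limits between ZT10 and ZT22, bounds included, where 2.75% of all probes did. In ADX-PSL, 2 of 42 (4.76%) passed, both lower at ZT10, beside 2.35% of all probes in either direction and 1.57% in the lower direction. Over the probes measured on both arrays the median log2 ratio was 0.03 for 35 receptor probes in sham-PSL and 0.01 for 34 in ADX-PSL, beside 0.009 and 0.001 over all probes. Of the 32 probes measured throughout, 9 (28.1%) were higher on both ZT10 arrays than on both ZT22 arrays, which held for 18.2% of all probes, and 6 (18.8%) were lower on both, beside 15.5%.

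**Figure D2:**
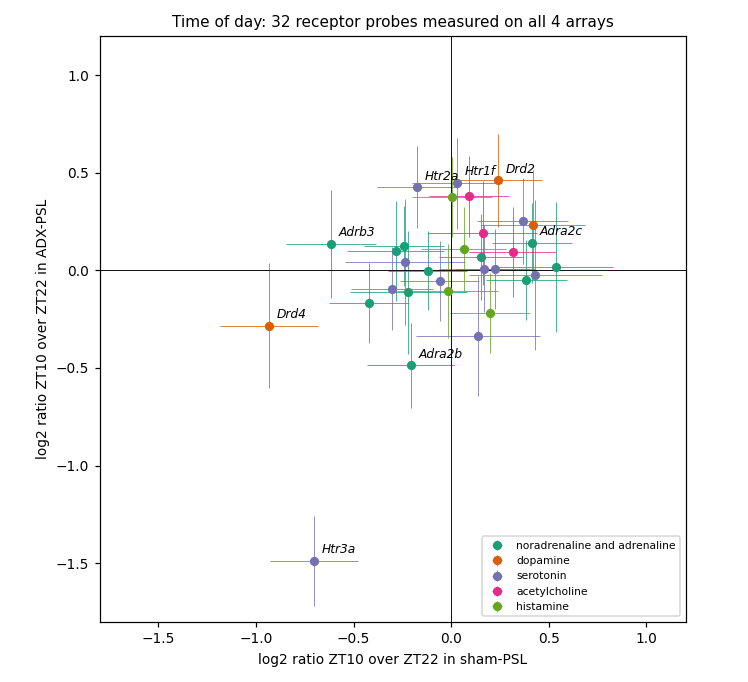
The log2 ratio of ZT10 over ZT22 in sham-PSL (horizontal axis) and ADX-PSL (vertical axis) for the 32 receptor probes measured on all 4 arrays, coloured by transmitter. Each point is 1 probe and bars are the error from the spots. Most points lie within 0.5 of 0 on both axes, Htr3a is lower at ZT10 in both (-0.71 and -1.49), and Drd4 lies at -0.93 in sham-PSL and -0.28 in ADX-PSL.

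The dopamine receptors were read by 1 probe each. Drd4, which acts through Gi, was 38.9 (ZT10) and 74.3 (ZT22) in sham-PSL mice, and 27.9 (ZT10) and 33.9 (ZT22) in ADX-PSL mice. The sham-PSL reading at ZT22 was the highest, and both ADX-PSL readings were below both of sham-PSL. The log2 ratio of ADX-PSL over sham-PSL was -1.13 at ZT22 (Z = -1.86, spot error 0.29) and -0.48 at ZT10. Drd2, which also acts through Gi, went the other way over time, with 78.6 and 84.3 at ZT10 and 66.7 and 61.3 at ZT22. Drd5, a Gs receptor, likewise had 66.2 and 59.4 at ZT10 against 49.5 and 50.5 at ZT22. None of these passed the limits. Drd3 was measured on 3 arrays, at 22.4 to 29.5, and Drd1a, the other Gs receptor, only in sham-PSL at ZT10, at 22.

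Among the alpha-1 adrenergic receptors, which act through Gq, Adra1b was 1349, 1467, 1387 and 1388 on the 4 arrays, and its second probe 259, 347, 296 and 332. Both probes had their lowest reading in sham-PSL at ZT10 and their highest in sham-PSL at ZT22. Adra1d was 117, 105, 97.2 and 92.6, and its second probe 42.5, 29.3, 30.0 and 29.7. Both were highest in sham-PSL at ZT10. Adra1a was 46.2 to 56.3 on the 4 arrays.

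The alpha-2 receptors, the Gi receptors at which clonidine relieves pain, were all measured. Adra2a was 3327 and 3932 in sham-PSL mice and 3896 and 3575 in ADX-PSL mice, so that the time difference had opposite signs under the operations. Adra2c was 2082 and 1561 in sham-PSL mice, and 2212 and 2007 in ADX-PSL mice. Its sham-PSL reading at ZT22 was the low one, and the log2 ratio of ZT10 over ZT22 was 0.42 there, against 0.14 in the ADX-PSL pair. Adra2b was 77.3 and 89.2 in sham-PSL mice and 94.5 and 133 in ADX-PSL mice, so that both ADX-PSL readings were above both of sham-PSL. Its log2 ratio of ADX-PSL over sham-PSL was 0.29 at ZT10 and 0.57 at ZT22 with spot errors of 0.22, below the limits.

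Adrb3, a beta receptor which acts through Gs in fat and smooth muscle, was 52.5 (ZT10) and 80.5 (ZT22) in sham-PSL mice, and 44.7 (ZT10) and 40.7 (ZT22) in ADX-PSL mice. The sham-PSL reading at ZT22 was again the high one, with a log2 ratio of ADX-PSL over sham-PSL of -0.98 at that time (Z = -1.62). The second Adrb3 probe was also highest on that array, at 22.6, but its ADX-PSL reading at ZT22, 20.9, was not well above background. Its log2 ratio of ADX-PSL over sham-PSL at ZT22 was -0.11 as measured, so that it did not show the drop read by the brighter probe. Drd4 and Slc6a4 below were also highest in sham-PSL at ZT22. So were, among others, the brightest probes of Adra1a, Adra1b, Adra2a, Htr2a, Htr2c and Htr5b, but by narrower margins. Drd4 read 74.3 there against 38.9 on the next highest array, and Adrb3 80.5 against 52.5. Adra2a read 3932 there against 3896 on the next highest array, and Htr5b 33.4 against 33.2. The blood markers were low on that array, and their part was not tested.

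Serotonin receptors that act through Gi, the Htr1 group, curb transmitter release and firing. Htr1a was 73.6 and 65.5 in sham-PSL mice and 89.9 and 89.3 in ADX-PSL mice, both ADX-PSL readings being the higher ones, by log2 ratios of 0.29 at ZT10 and 0.45 at ZT22 and short of the limits. Htr1b was at background in sham-PSL, with readings of 13.2 and 12.8, and measured in ADX-PSL, with 17.7 and 28.1. At ZT22 it was at least 1.53-fold higher in ADX-PSL. Htr1f was 89.5 in ADX-PSL at ZT10 and 65.5 to 66.9 on the other arrays. Htr1d and Htr5a were measured only at ZT10, under both operations, with 26.1 and 26.3 for Htr1d and 15.4 and 19.3 for Htr5a. At ZT22 the readings were 20.6 and 22.8 for Htr1d and 9.83 and 12.1 for Htr5a, none well above background. On the ZT22 arrays the lowest measurable level (18.4 and 22.2) was higher than on the ZT10 arrays (14.9 and 12.8). The Htr1d readings were above that level and the Htr5a readings below it, and why neither was measured at ZT22 was not tested.

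The Gq receptors of serotonin include Htr2c, through which serotonin raises the excitability of motor neurons. Its brightest probe gave 4174, 4351, 4121 and 4274, a difference between lowest and highest of 1.06-fold. The probe with the aspartate codon gave 126, 155, 128 and 137, and was likewise highest in sham-PSL at ZT22. The remaining probe gave 29.6, 26.9, 28.8 and 36.3, with its lowest reading on that array and its highest in ADX-PSL at ZT22. Htr2a was 228, 257 and 236 on the first 3 arrays and lower, at 176, on the last. At ZT22 its log2 ratio of ADX-PSL over sham-PSL was -0.55 with a spot error of 0.21.

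Of the Gs receptors of serotonin, Htr7 was 2428 and 2076 in sham-PSL mice and 2244 and 2231 in ADX-PSL mice, and its second probe was 23.9, 26.6 and 17.3 on the first 3 arrays and at background on the last. In sham-PSL these probes went opposite ways over time, with log2 ratios of 0.23 and -0.15, and at ZT10 the second probe was lower in ADX-PSL by a log2 ratio of -0.47. The mean over both probes gave a log2 ratio of ADX-PSL over sham-PSL at ZT22 of -0.26, against 0.10 for the brightest probe. Htr6 was 38.8 in sham-PSL at ZT10 and 28.8 to 29.8 on the other arrays. Its second probe was measured only in sham-PSL at ZT22, at 20.1, at least 1.35-fold above the ZT10 reading, so that the probes disagreed there and their mean log2 ratio over time was -0.02, against 0.43 for the brightest probe. Htr4 was 81.9 and 63.6 in sham-PSL mice and 120 and 101 in ADX-PSL mice. Both ADX-PSL readings were the higher, with log2 ratios of 0.55 at ZT10 and 0.66 at ZT22 and spot errors of 0.22 and 0.23. Neither ratio passed the limits. The second Htr4 probe was at background on every array and so does not bear on it. Htr5b, whose coupling is not settled, was 28.4 to 33.4.

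The muscarinic receptors Chrm2 and Chrm4, which act through Gi, were measured throughout. Chrm2 was 328, 307 and 331 on the first 3 arrays and 255 in ADX-PSL at ZT22. Chrm4 was 47.7 and 42.7 in sham-PSL mice and 59.6 and 52.2 in ADX-PSL mice. Of the Gq types, Chrm3 was 74.98 to 94.3. Chrm5 was measured only in sham-PSL at ZT10, at 25.6. With readings of 3.79, 7.76 and 3.92 elsewhere, all at background, the sham-PSL reading at ZT10 exceeded that at ZT22 at least 1.39-fold, and that of ADX-PSL at ZT10 at least 1.99-fold. Both bounds fell short of 2, though the Z-scores of the measured ratios were 4.61 and -2.95. Chrm1 was measured on 2 arrays by its brighter probe, at 24.3 in sham-PSL at ZT22 and 20.1 in ADX-PSL at ZT10. The dimmer Chrm1 probe was measured only in ADX-PSL at ZT10, at 14.5. Both ZT10 readings in ADX-PSL were below the lowest measurable level at ZT22, 22.2, so no fold over time could be bounded. The Z-scores of the measured ratios were 2.17 and 3.41. At ZT10 the dimmer probe was higher in ADX-PSL than in sham-PSL as measured (Z = 3.44). Its 14.5 was below the lowest measurable level in sham-PSL, 14.9, so that no fold could be bounded there either. At ZT22 the brighter probe was at least 1.094-fold lower in ADX-PSL than in sham-PSL (Z = -2.45).

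Among the histamine receptors, Hrh3, the Gi receptor that restrains the release of histamine and other transmitters, was 3244 and 2826 in sham-PSL mice and 3046 and 3545 in ADX-PSL mice. The time difference had opposite signs under the operations, with log2 ratios of 0.20 and -0.22 and spot errors that were about as large. Hrh4 was 89.0 to 105. Hrh1, the Gq receptor, was 662, 661, 719 and 555 by its brightest probe, with the low reading in ADX-PSL at ZT22. A second probe gave 48.2 and 48.8 in sham-PSL mice and 62.7 and 67.5 in ADX-PSL mice. At ZT22 the log2 ratios of ADX-PSL over sham-PSL were thus -0.25 and 0.47 for probes of the same gene.

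**Figure D3:**
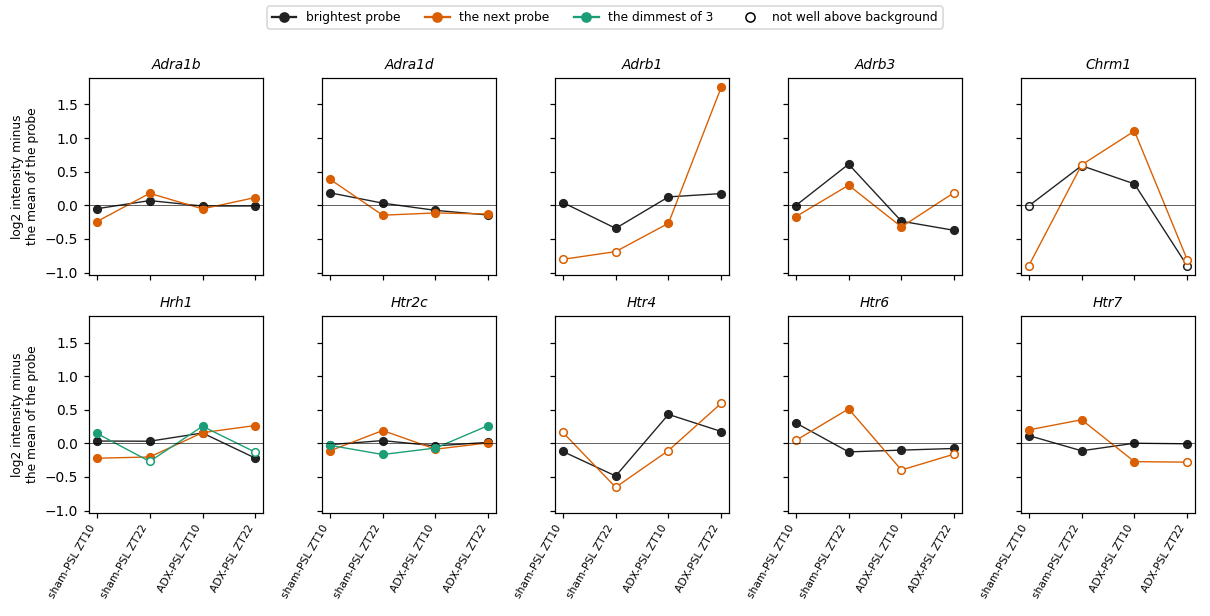
The 10 receptor genes with several probes. Each line is 1 probe, drawn as log2 intensity minus its own mean over the arrays, black for the brightest probe of the gene, and open points were not well above background. The probes of Adra1b and Htr2c stay within 0.5 of their means, while those of Adrb1 part in ADX-PSL at ZT22, where the dim probe rises and the bright one does not.

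The 10 genes with several probes had 22 probes. Where at least 2 probes of a gene were measured on both arrays compared, which held in 21 cases, their log2 ratios differed by a median of 0.27. This was of the size of the median spot error of a log2 ratio, 0.22 to 0.23, and as large as most of the differences between conditions above.

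After adrenalectomy, 0 of the 44 receptor probes tested passed the limits at ZT10, where 3.0% of all probes did. At ZT22, 1 of 39 (2.56%) passed, the dim Adrb1 probe, which was higher, beside 2.34% of all probes in either direction and 1.09% in the higher direction. The median log2 ratio of ADX-PSL over sham-PSL was 0.05 for 38 receptor probes at ZT10 and -0.01 for 32 at ZT22, beside -0.001 and 0.011 over all probes. Both ADX-PSL arrays were above both sham-PSL arrays for 7 of 32 probes (21.9%, beside 18.9% of all probes), those of Adra2b, Adrb1, Chrm4, Hrh1, Hrh4, Htr1a and Htr4. They were below both for 3 probes (9.38%, beside 16.1%), those of Adra1d, Adrb3 and Drd4. For Adrb1 and Adra1d this was the brightest probe, and for Hrh1 the second.

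**Figure D4:**
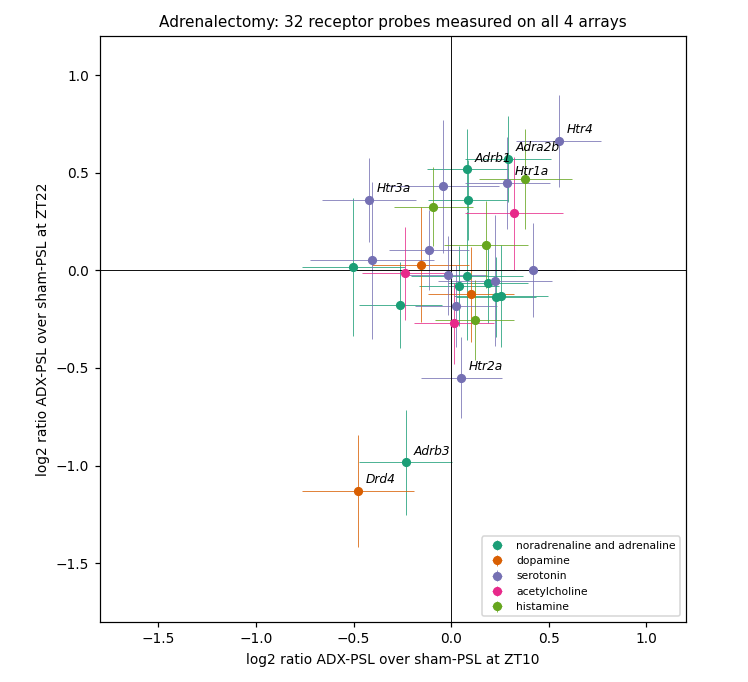
The log2 ratio of ADX-PSL over sham-PSL at ZT10 (horizontal axis) and at ZT22 (vertical axis) for the 32 receptor probes measured on all 4 arrays, coloured by transmitter. Each point is 1 probe and bars are the error from the spots. Htr4 is higher at both times (0.55 and 0.66), Drd4 (-0.48 and -1.13) and Adrb3 (-0.23 and -0.98) are lower at both, and most other points lie within 0.5 of 0.

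Grouped by coupling, the brightest probes of 11 Gi genes had a median log2 ratio of ADX-PSL over sham-PSL of 0.18 at ZT10, with 9 genes above 0, and of 0.13 at ZT22, with 7 above 0. For 7 Gq genes the medians were 0.04 and -0.13, and at ZT22 0 of 7 were above 0, in a range from -0.55 to -0.02. This held for the brightest probes alone. Other probes of Hrh1 (0.47), Htr2c (0.43) and Adra1d (0.02) were above 0 at ZT22, and those of Adra1b (-0.06) and Htr2c (-0.18) below. For 7 Gs genes the medians were -0.11 and 0.05. Over all probes measured on both arrays the medians were -0.001 (ZT10) and 0.011 (ZT22). Each coupling median was smaller than the spot error of a single ratio, which does not measure the spread of a median.

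A linear model with operation and time as additive factors was fitted with limma to all 28843 probes measured on at least 1 array, of which 45 were receptor probes. It leaves 1 residual degree of freedom, which is the difference of the time effects between operations. The error of each probe from this difference was drawn towards a value shared by all probes, with 1.886 prior degrees of freedom. By its adjusted p-values, 0 receptor probes differed by operation and 0 by time, and 0.0% of all probes did. At an unadjusted p under 0.05 there were 6 of 45 receptor probes (13.3%) for operation, beside 6.25% of all probes, and 5 of 45 (11.1%) for time, beside 4.92%. Of those for operation, Htr4, Drd4 and the second Hrh1 probe were measured throughout. Htr1b and the dim probes of Htr6 and Htr7 had readings at background. The brightest probes of Hrh1, Htr6 and Htr7 had log2 differences by operation of -0.07, -0.18 and -0.005. Of those for time, only Htr3a was measured throughout. The lowest p for operation was that of Htr4 (log2 difference 0.61, SE 0.12, limma adjusted p = 0.769). For time it was that of Htr5a (log2 difference 0.66, SE 0.12, limma adjusted p = 0.932), which was measured only at ZT10. The next was Htr3a (-1.10, SE 0.26, limma adjusted p = 0.932).

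The genes that make, store and clear the amines were listed beside their receptors. Of 24 such genes, 16 were measured on all arrays and 8 on none, namely Dbh, Tph1, Tph2, Slc6a2, Slc6a3, Slc22a2, Slc22a3 and Aoc1, which are named after their values were seen. They include the enzymes that commit cells to noradrenaline and serotonin. Slc6a4, the transporter that takes serotonin back up, was the only gene of the list to pass the limits. It was 17.8 (ZT10) and 146 (ZT22) in sham-PSL mice, and 20.4 (ZT10) and 24.2 (ZT22) in ADX-PSL mice. A single array thus stood above 3 others, with log2 ratios of ZT10 over ZT22 of -3.03 (sham-PSL) and -0.25 (ADX-PSL), and of ADX-PSL over sham-PSL of -2.59 at ZT22 and 0.19 at ZT10. It is the array on which Drd4, Adrb3 and several other receptor genes were highest.

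The 5 genes that make, store and break down acetylcholine were all measured and none passed the limits. Slc18a3, the vesicular transporter, was 8844 and 7795 in sham-PSL mice and 7280 and 6567 in ADX-PSL mice, and Ache, the esterase, was 3212, 2420, 2772 and 2737. The medians of the list were 0.15 and 0.15 for time and -0.21 and -0.25 for adrenalectomy, and markers of motor neurons, which make acetylcholine, had medians of -0.07 and -0.24 for adrenalectomy.

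Downstream of the receptors no gene passed the limits in any comparison. All 14 genes of G protein subunits were measured on every array, with list medians between -0.06 and -0.01. Gnas, the alpha subunit of Gs, was 75170, 66940, 74880 and 80410, and Gnb2, a beta subunit, was 35580, 38440, 30000 and 29120. Of 23 effectors, such as adenylyl cyclases and phospholipases, 21 were measured throughout, with medians from -0.04 to 0.09. Prkacb, a catalytic subunit of protein kinase A, stayed between 32520 and 34980, and Prkar1a, a regulatory subunit, between 6484 and 6843. All 16 genes of receptor kinases, arrestins and regulators of G protein signalling were measured, with medians from -0.03 to 0.10. Arrb1, an arrestin, was 11010 to 12050, and Adrbk1, the receptor kinase also named Grk2, was 8565 to 10300.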

How the data were processed

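The authors labelled spinal RNA with Cy3, hybridized it to 60-base arrays and read the spots with Agilent Feature Extraction (10.7.1.1 in the file headers, 9.5.1.1 in the submitters' processing notes). The deposited table holds linear intensities, quantile-normalized over the 4 arrays, which lay on 1 slide. It was set against the deposited processed signal intensity of the raw files (Spearman 0.99994 to 0.99998 per array), whose spot errors and flags were also used. Ratios were taken between single arrays on the log2 scale. Z-scores express how many SDs a log2 ratio lies from the mean of the log2 ratios of all probes. Where 1 level was not well above background, a fold was given as a bound against the higher of that array's lowest level well above background and the probe's own level, and the bound had to pass the ratio limit. A gene's probe was the one with the highest mean level. Every receptor gene was considered, and those measured on all arrays or past the limits were given by array, others by range; values of 1 gene are not reported here. Of the other lists, members past the limits were named, or else the 2 with the highest mean level.

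Computations used Python 3.11.15, numpy 2.4.6, pandas 2.3.3, R 4.3.3 and limma 3.58.1 with Benjamini-Hochberg adjustment. Calls and fit were tested on simulated data. The members and lists were chosen with earlier results of these data known. The number of arrays limits the precision. Alternatives were other normalizations, background filters, limits and fits.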

Additional observations from a re-analysis of the deposited data

Results flagged for a closer look

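Htr3a had opposite differences between the operations at the 2 times. The log2 ratio of ADX-PSL over sham-PSL was -0.42 at ZT10 and 0.36 at ZT22, each beyond its spot error, with 1 array per condition. The difference between these ratios was not tested.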

How the results depend on the processing

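Counts of receptor probes past the limits were small, and other settings moved them by single probes. The share of all probes called under the same setting is given in parentheses. For time in sham-PSL the count of 0 became 4 with a ratio of 1.5 and no Z-score (8.79%), 3 without a background filter (4.99%), 1 with the measured ratio in place of the bound (4.22%), and 1 with a Z-score within 20 bins of level and no ratio (4.89%). The settings with bins and with the measured ratio were chosen after seeing the data. For time in ADX-PSL the count of 2 became 0 with normexp correction (0.637%), 5 without a background filter (5.05%) and 4 with the measured ratio (3.72%). For adrenalectomy at ZT10 the count of 0 became 2 with a ratio of 1.5 (9.55%), 3 without a background filter (4.88%) and 2 with the measured ratio (4.52%). For adrenalectomy at ZT22 the count of 1 became 2 with a shift to a common 75th percentile (2.57%), without normalization (2.58%) or with a ratio of 2 alone (3.12%), the added probe being that of Drd4, and 2 with the measured ratio (3.65%), the added probe being of Chrm1. It became 5 with a ratio of 1.5 (8.45%), 4 without a background filter (5.1%), and 0 with normexp correction (0.825%) or with both arrays required to be well above background (1.02%). The offset of 50 in the normexp setting by itself shrinks the ratios of dim probes. Causes of the other moves were not tested. Without normalization between arrays the median over all probes moved by over 0.1 in 2 comparisons, to -0.10 for time in ADX-PSL and 0.12 for adrenalectomy at ZT22. The widest moves of a receptor median were from 0.012 to 0.112 for time in ADX-PSL and from -0.007 to 0.086 for adrenalectomy at ZT22. The former came with a shift to a common 75th percentile, where the median over all probes was 0.01, and the latter without normalization. All moves of receptor medians were below the spot error of a single ratio, which is not the error of a median. By adjusted p-values the additive fits called 0 receptor probes under every other normalization, filter and error setting run. Few of all probes were called there either, at most 39, for operation with an error trend over intensity. A fit without the other factor also called 0 receptor probes. Fits with an array left out held 1 factor and had a single array in 1 group, so they do not test this result. Of 488 ratios of single genes under alternatives, 22 moved by more than their spot error, 10 of them with normexp correction and 12 with the mean over a gene's probes. No paired analysis was possible because each condition had 1 array. Levels near the lowest measurable one, as for Chrm5, Htr1b and the dim Adrb1 probe, limit what these arrays show.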

Other observations

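Promoter sequences of RefSeq (build GRCm38.p6, around each gene's start) were at hand for 28 of the 37 receptor genes, in 36 promoters. On either strand, TGTTCT, which is part of the glucocorticoid response element, occurred in 6 of them (16.7%) and in 19.0% of all 32851 promoters. The E-box CACGTG, to which clock proteins bind, occurred in 2 receptor promoters, those of Adra2a and Adra2c, and in 7.15% of all promoters. A match of letters is a description, not a binding site.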
